A study of Rattus norvegicus with 12 samples.

Results

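Genes of the cell cycle and of DNA replication were followed in rat aortic rings, small segments of artery that send out cells and new vessels when embedded in a gel. The genes were a list of 42 symbols, looked up by symbol in the gene annotation of the array, and 37 of them were measured among 14324 genes tested. Of these, 14 act in S phase or its preparation, 18 act in mitosis, 2 are D-type cyclins and 3 are inhibitors of cyclin-dependent kinases (CDKs). The other 5, Mcm3, Mcm4, Mki67, Birc5 and Cenpf, were not analysed here. No filter on low values was used, so every measured gene of the list entered every test.

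All rings came from male Fisher 344 rats of 1 to 2 months and were kept in EBM medium without serum. The collagen control group was rings in collagen gel with no TNF-alpha, and the collagen TNF group received 10 ng/ml recombinant rat TNF-alpha in the same gel. The fibrin control and fibrin TNF groups were the same pair of conditions in fibrin gel. Each group had 3 arrays, each made from the pooled RNA of 4 to 6 ring cultures collected at day 2. The titles call the replicates biological without saying whether they came from different animals, so p-values measure only the spread between these samples. The tissue label names collagen for the fibrin samples as well, and groups were therefore taken from the titles.

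A cell commits to division when D-type cyclins and their kinases inactivate the retinoblastoma protein and release E2F factors, which switch on the genes for origin licensing and nucleotide synthesis. After DNA replication, the MuvB complex, which in resting cells is part of the repressor complex DREAM, acts with B-Myb and Foxm1. Together they control a later group of genes for entry into mitosis, spindle assembly and chromosome segregation. CDK inhibitors oppose both steps, and among them Cdkn1a (p21) is a classical target of p53, acting through CDK2 and, by way of DREAM, on the mitotic genes. In the artery wall most cells are quiescent in life, and explanted rings are a setting in which smooth muscle, endothelial and adventitial cells can re-enter the cycle.

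All values are log2 array levels, and a level of one gene is not compared with that of another. Differences were tested with limma over all 14324 genes, with Benjamini-Hochberg adjustment and a threshold of 0.05. Errors of group levels are SD with n = 3, and errors of differences are standard errors. Each sample is a whole culture, so fewer cells of a type and less RNA per cell cannot be told apart. The measured smooth muscle markers had mean levels of 6.68 (Cnn1) to 10.40 (Myh11), the endothelial markers 5.38 (Emcn) to 10.37 (Tie1), the fibroblast markers 7.75 to 13.51 and the macrophage markers 7.25 to 10.06. Lymphocyte markers lay at 3.03 to 5.36 and neutrophil markers at 2.70 to 5.11. Acta2 and Pecam1 were not measured.

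In the fit without pairing, the inhibitor Cdkn1a was the only gene of the list that rose past the threshold with TNF-alpha, and it did so in fibrin. Blocked on replicate number inside each gel, Ccnd1, a D-type cyclin, was called higher in fibrin as well (adjusted p = 0.0176 by limma), which made 2 of 37, and with the block across all 4 groups Ccnd1 was called in both gels (adjusted p = 0.00926 in fibrin and 0.0495 in collagen). No S-phase gene and no mitotic gene was called in any of the 5 comparisons. For TNF-alpha in collagen, 0 of 37 genes were called, against 6.37% of all genes tested, and 4 had an unadjusted p below 0.05. For TNF-alpha in fibrin, 1 of 37 was called, against 3.13%, and 6 had an unadjusted p below 0.05. Between the gels, 1 of 37 was lower in fibrin without TNF-alpha (Ccnd2, against 10.5% of all genes called, 5.19% lower) and 1 of 37 was higher in fibrin with TNF-alpha (Cdkn1a, against 8.19%). The difference of the TNF-alpha effect between the gels was called for 0 of 37, against 1.24%, with 4 at an unadjusted p below 0.05.

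With TNF-alpha in collagen, the 95% confidence interval of the log2 difference lay within ±1, that is within a 2-fold change, for 37 of 37 genes, and within ±0.5 (1.41-fold) for 35. With TNF-alpha in fibrin these counts were 36 and 30, the gene outside ±1 being Cdkn1a. The median standard error over the list was 0.11, and 0.15 for the difference of the TNF-alpha effects.

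**Figure D1:**
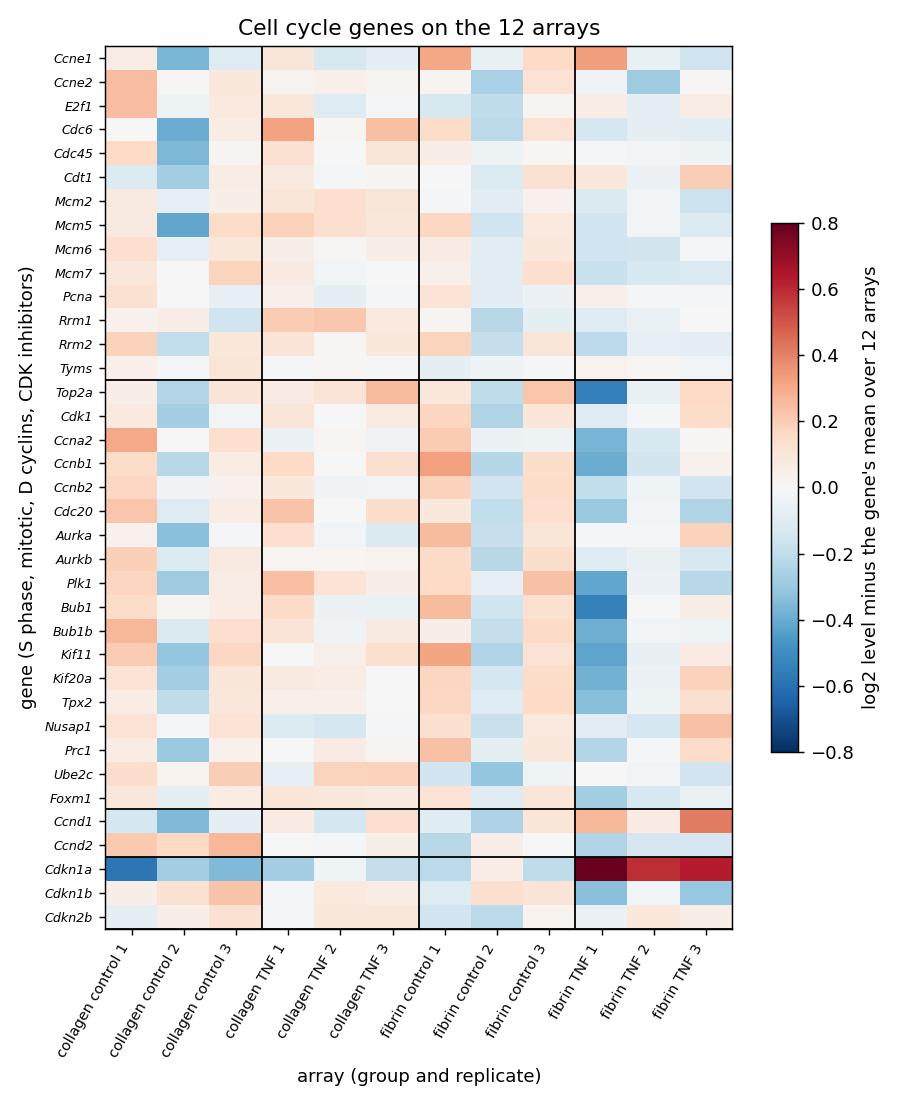
Level of each of the 37 genes (listed down the side by role) on each of the 12 arrays, as the log2 difference from the gene's own mean over all arrays. Cdkn1a is high on all 3 fibrin TNF arrays, replicate 2 of each control group is low within its group for most S-phase and mitotic genes, and replicate 1 of fibrin TNF is low for most mitotic genes.

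Among the 14 S-phase genes, the minichromosome maintenance (MCM) subunits, which form the replicative helicase, were measured as Mcm2, Mcm5, Mcm6 and Mcm7. Cdc6 and Cdt1 load that helicase onto origins and Cdc45 activates it. Mcm2 was 9.38, 9.25 and 9.36 on the collagen control arrays and 9.41, 9.44 and 9.41 on the collagen TNF arrays. In fibrin it was 9.29, 9.22 and 9.35 without TNF-alpha and 9.20, 9.29 and 9.14 with it. The 3 fibrin TNF arrays thus lay below the 3 collagen TNF arrays, by 0.21 ± 0.07, and this difference did not pass the threshold (adjusted p = 0.0791 by limma). It did so after quantile normalization (-0.26, adjusted p = 0.0335), without the genes of lowest mean (adjusted p = 0.0377) and with a trended and robust prior (adjusted p = 0.0390).

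Cdc6 was 7.74, 7.34 and 7.79 on the collagen control arrays, and 8.06, 7.76 and 7.98 on the collagen TNF arrays, so the groups overlapped narrowly. In fibrin it was 7.88, 7.53 and 7.85 without TNF-alpha and 7.60, 7.66 and 7.65 with it. Its differences were 0.31 ± 0.13 with TNF-alpha in collagen (adjusted p = 0.214 by limma) and -0.29 ± 0.13 between the TNF-treated gels (adjusted p = 0.202). Neither passed the threshold, nor did the difference of its TNF-alpha effects, -0.42 ± 0.18 (adjusted p = 0.344).

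Pcna, the sliding clamp of the DNA polymerases, and Tyms, thymidylate synthase, showed small differences. The Pcna differences lay between -0.04 and 0.02 in the 4 comparisons of groups, with a standard error of 0.07. Those of Tyms lay between -0.08 and 0.05, with a standard error of 0.06. Rrm1, the large subunit of ribonucleotide reductase, differed by -0.22 ± 0.08 between the TNF-treated gels (adjusted p = 0.139 by limma), and Rrm2, the small subunit, by -0.18 ± 0.11 (adjusted p = 0.362). The Rrm1 levels were low, with group means of 4.14 to 4.39 against column medians of 5.89 to 5.98. The transcription factor E2f1 differed by 0.12 ± 0.09 with TNF-alpha in fibrin and by -0.10 ± 0.09 in collagen, neither called.

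Over the 14 S-phase genes the median log2 difference was 0.06 for TNF-alpha in collagen, -0.07 for TNF-alpha in fibrin, -0.03 between the untreated gels and -0.14 between the TNF-treated gels. Over all genes tested the corresponding medians lay between -0.01 and 0.01. The positive median in collagen rested on a single array, becoming -0.03 without collagen control replicate 2. None of these genes was called. The 95% intervals of the S-phase genes reached from -0.41 to 0.31 for TNF-alpha in fibrin and from -0.57 to 0.38 between the TNF-treated gels.

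**Figure D2:**
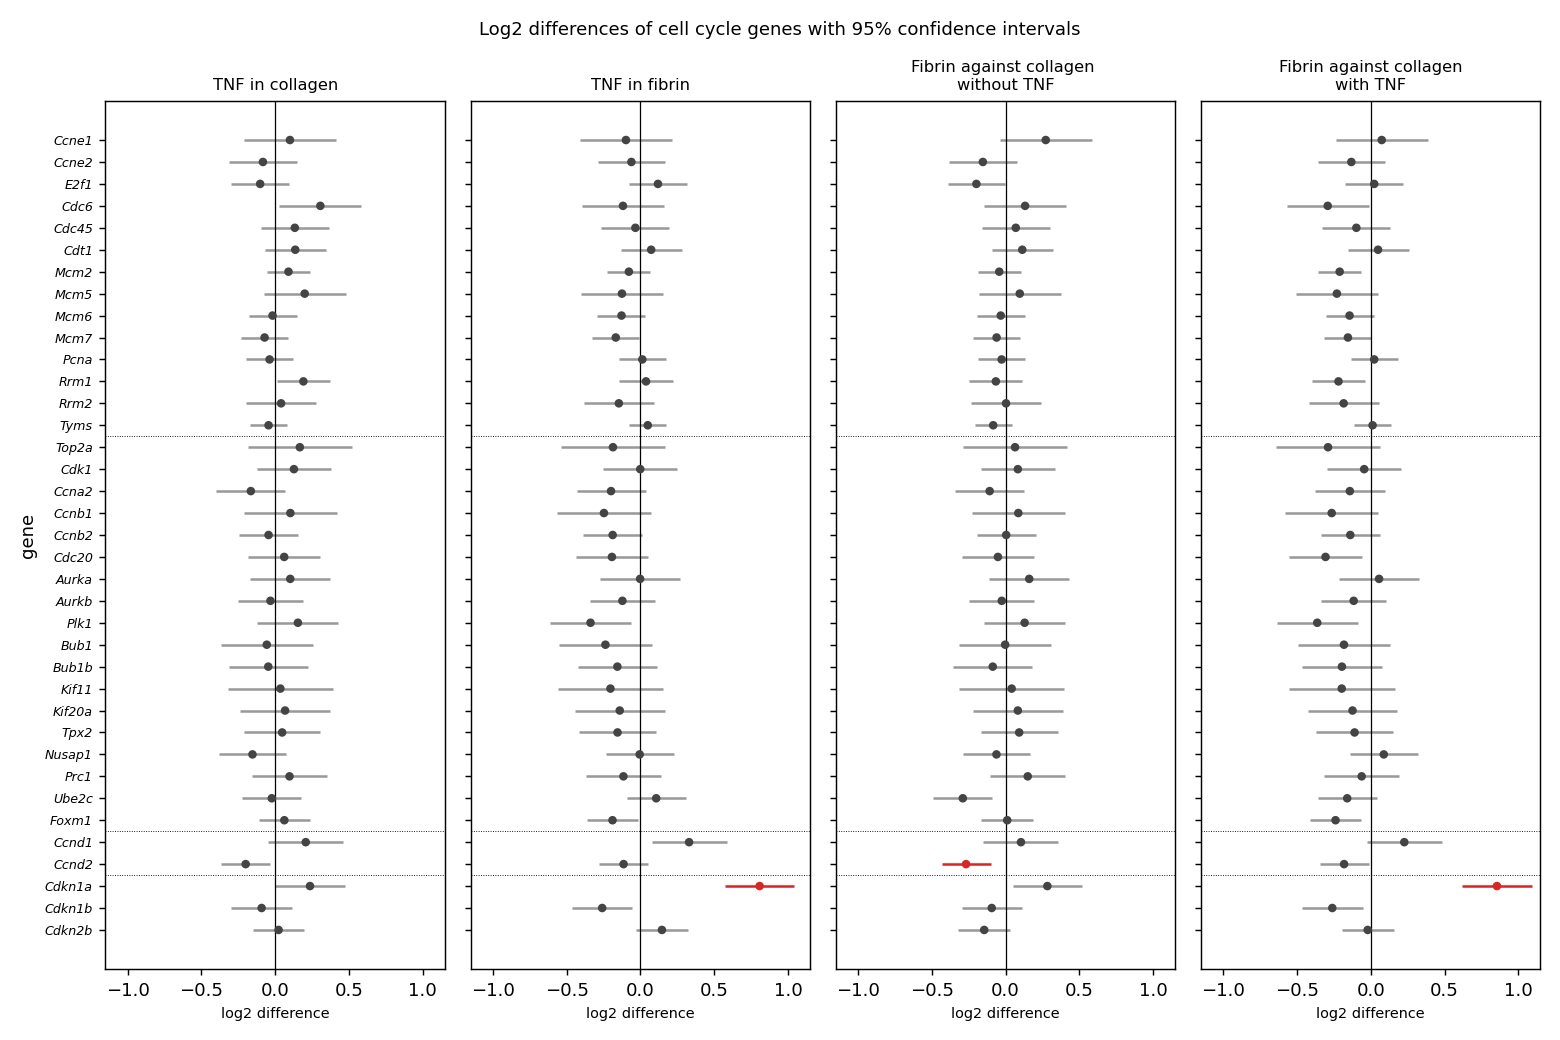
Log2 differences of the 37 genes for TNF-alpha in each gel and between the gels, with 95% confidence intervals from limma, ordered by role with dotted lines between roles and called genes in red. Most intervals span 0, Cdkn1a stands clear of it in fibrin with TNF-alpha (0.81 against fibrin control, 0.85 against collagen TNF), and 28 of 37 estimates are below 0 in each of those comparisons.

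The 18 mitotic genes include the kinases Cdk1, Plk1, Aurka and Aurkb, the cyclins Ccna2, Ccnb1 and Ccnb2, the spindle checkpoint genes Bub1 and Bub1b, and Foxm1, a transcription factor of this phase. Cdc20 and Ube2c direct the ubiquitin ligase that ends mitosis, and Kif11, Kif20a, Tpx2, Nusap1 and Prc1 build the spindle. The start regions of these genes and of the S-phase genes are shown here. The genes were correlated across the arrays both within and between the 2 roles, as described further on. RefSeq promoter entries (build GRCr8, 250 bases before to 50 after the start) were matched by gene identifier for 26 of the 37 genes, 13 mitotic, 10 S-phase and 3 inhibitor genes. The 6 shown were chosen after their matches were seen. They are the 150 bases before the start, read 5′ to 3′ on the strand of the gene, with capitals for the letters CCAAT, for TTTGAA or TTTAAA, which are the core of the cell cycle homology region (CHR), and for TTTCCCGC, TTTGGCGC or TTCCCGCC, versions of the E2F site. All were searched on both strands, TTTAAA being its own reverse complement, and CCAAT on the opposite strand reads ATTGG. They lie in the order listed at chr2:33655226-33655375 (minus), chr20:19265143-19265292 (plus), chr1:186147508-186147657 (plus), chr5:137255800-137255949 (minus), chr19:13488663-13488812 (plus) and chr13:42404353-42404502 (minus).
Ccnb1: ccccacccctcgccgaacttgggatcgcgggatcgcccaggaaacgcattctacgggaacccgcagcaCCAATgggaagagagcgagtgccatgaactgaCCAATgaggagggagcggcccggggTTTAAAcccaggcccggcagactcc
Cdk1: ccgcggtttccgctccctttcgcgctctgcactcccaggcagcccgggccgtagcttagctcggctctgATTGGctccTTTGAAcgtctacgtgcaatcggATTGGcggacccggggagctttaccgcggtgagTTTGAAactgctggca
Plk1: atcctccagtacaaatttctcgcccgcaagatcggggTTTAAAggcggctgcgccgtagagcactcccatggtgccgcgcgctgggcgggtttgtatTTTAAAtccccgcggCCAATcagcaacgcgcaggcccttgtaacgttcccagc
Cdc20: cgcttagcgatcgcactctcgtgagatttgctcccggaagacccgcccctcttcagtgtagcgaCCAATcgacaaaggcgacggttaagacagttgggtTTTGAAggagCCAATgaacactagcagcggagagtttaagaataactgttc
Mcm5: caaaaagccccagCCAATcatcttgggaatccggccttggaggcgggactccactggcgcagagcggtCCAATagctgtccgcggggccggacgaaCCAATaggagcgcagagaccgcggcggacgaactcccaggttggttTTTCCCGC
Mcm6: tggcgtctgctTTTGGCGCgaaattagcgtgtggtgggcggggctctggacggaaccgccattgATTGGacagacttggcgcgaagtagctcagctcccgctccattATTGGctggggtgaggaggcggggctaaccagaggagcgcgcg

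The promoters of Ccnb1, Cdk1, Plk1 and Cdc20 held both the CHR letters and CCAAT, and those of Mcm5 and Mcm6 held CCAAT and an E2F version without the CHR letters. The CCAAT letters of Ccnb1 stood 32 bases apart, as did the nearer pair of Cdk1. Over the mitotic genes, the CHR letters occurred in 13 of 13 promoters, CCAAT in 10 of 13 and both in the same 10, and the E2F letters occurred in 0 of 13. Over the S-phase genes, the CHR letters occurred in 2 of 10, CCAAT in 6 of 10, both in 0 of 10 and the E2F letters in 6 of 10. Of the 11823 promoters of genes tested, 23.9% held the CHR letters, 38.3% CCAAT, 9.74% both and 4.44% the E2F letters. TATAAA was found for 1 mitotic gene, Nusap1, and 11.8% of the promoters of genes tested, and the NF-kappaB version GGGACTTTC for 0 of 26 and 0.389%. The Cdkn1a entry held none of these letters, which says only that they are not in this window. These matches are descriptions of sequence and not measured binding.

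Ccnb1, the main cyclin of mitotic entry, was 9.12, 8.75 and 9.04 on the collagen control arrays and 9.14, 8.97 and 9.11 on the collagen TNF arrays. In fibrin it was 9.31, 8.75 and 9.12 without TNF-alpha and 8.58, 8.83 and 9.01 with it. The fibrin groups overlapped, since replicate 2 of the control lay below 2 of the TNF-treated arrays. Plk1, a kinase needed for centrosome maturation and mitotic exit, was 8.74, 8.29 and 8.63 on the collagen control arrays and 8.81, 8.68 and 8.62 on the collagen TNF arrays. It was 8.73, 8.51 and 8.80 on the fibrin control arrays and 8.15, 8.52 and 8.35 on the fibrin TNF arrays. All 3 fibrin TNF arrays of Plk1 lay below the collagen TNF arrays, while the fibrin groups overlapped narrowly. The Plk1 difference was -0.34 ± 0.13 for TNF-alpha in fibrin (adjusted p = 0.211 by limma) and -0.36 ± 0.13 between the TNF-treated gels (adjusted p = 0.108), and neither was called.

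Foxm1 differed by -0.19 ± 0.08 with TNF-alpha in fibrin (adjusted p = 0.282 by limma) and by -0.24 ± 0.08 between the TNF-treated gels (adjusted p = 0.0974). Cdc20 differed by -0.31 ± 0.11 between the TNF-treated gels (adjusted p = 0.128). Ube2c stood apart from the other mitotic genes in its pattern. It was 8.55, 8.44 and 8.61 on the collagen control arrays and 8.25, 8.10 and 8.37 on the fibrin control arrays, which did not overlap. That difference of -0.29 ± 0.09 had an adjusted p of 0.0666 by limma, and passed the threshold without fibrin control replicate 3 (-0.36, adjusted p = 0.0456), with a trended and robust prior (adjusted p = 0.0377) and without the genes of lowest mean (adjusted p = 0.0387). With TNF-alpha in fibrin it was the only mitotic gene with a positive difference, 0.11 ± 0.09.

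Over the 18 mitotic genes the median log2 difference was 0.05 for TNF-alpha in collagen and -0.17 for TNF-alpha in fibrin, with 7 and 17 of the 18 estimates negative. Between the gels it was 0.03 without TNF-alpha and -0.15 with it, with 7 and 16 negative. Of all 14324 genes tested, 6616 were negative for TNF-alpha in fibrin and 7326 between the TNF-treated gels. None of the 18 was called in either comparison, and the 95% intervals reached from -0.61 to 0.31 for TNF-alpha in fibrin and from -0.64 to 0.33 between the TNF-treated gels. The size of both medians rested largely on fibrin TNF replicate 1, without which they were -0.04 and -0.07. These comparisons share the fibrin TNF arrays.

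Of all 37 genes, 16 had their 3 fibrin TNF arrays entirely below their 3 collagen TNF arrays (12.9% of all genes tested did so) and 1, Cdkn1a, entirely above (14.8%). The 16 were 9 S-phase genes (Ccne2, Cdc6, Cdc45, Mcm2, Mcm5, Mcm6, Mcm7, Rrm1 and Rrm2), 5 mitotic genes (Ccnb2, Cdc20, Aurkb, Plk1 and Foxm1), Ccnd2 and Cdkn1b. Of these, Rrm1 had low levels, as given above. The count was 10 when each array was centred on its median, and none of the 16 was called. Such a gap also depends on the spread within groups. The mean of the mitotic genes had an SD of 0.02 in collagen TNF, against 0.16 to 0.18 in the other groups. That of the S-phase genes was 0.05 in collagen TNF and 0.02 in fibrin TNF, against 0.13 and 0.11 in the controls. Cdc45, among the 16, differed by -0.10 ± 0.11. The count of 16 was chosen after the values were seen, and the genes of a list are not independent. In the TNF-treated gels, 6 of 9 macrophage markers were called lower and 0 higher in fibrin, against 3.64% of all genes called lower and 4.55% higher. Their summed linear level was 4196 to 4662 in fibrin TNF against 5593 to 7319 in collagen TNF. Without TNF-alpha, 6 of 9 were called lower in fibrin too, against 5.19% of all genes. There 2 of the 37 listed genes lay entirely below collagen control, against 2153 of all 14324 genes tested. The part of the macrophage markers in the result was not tested.

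**Figure D3:**
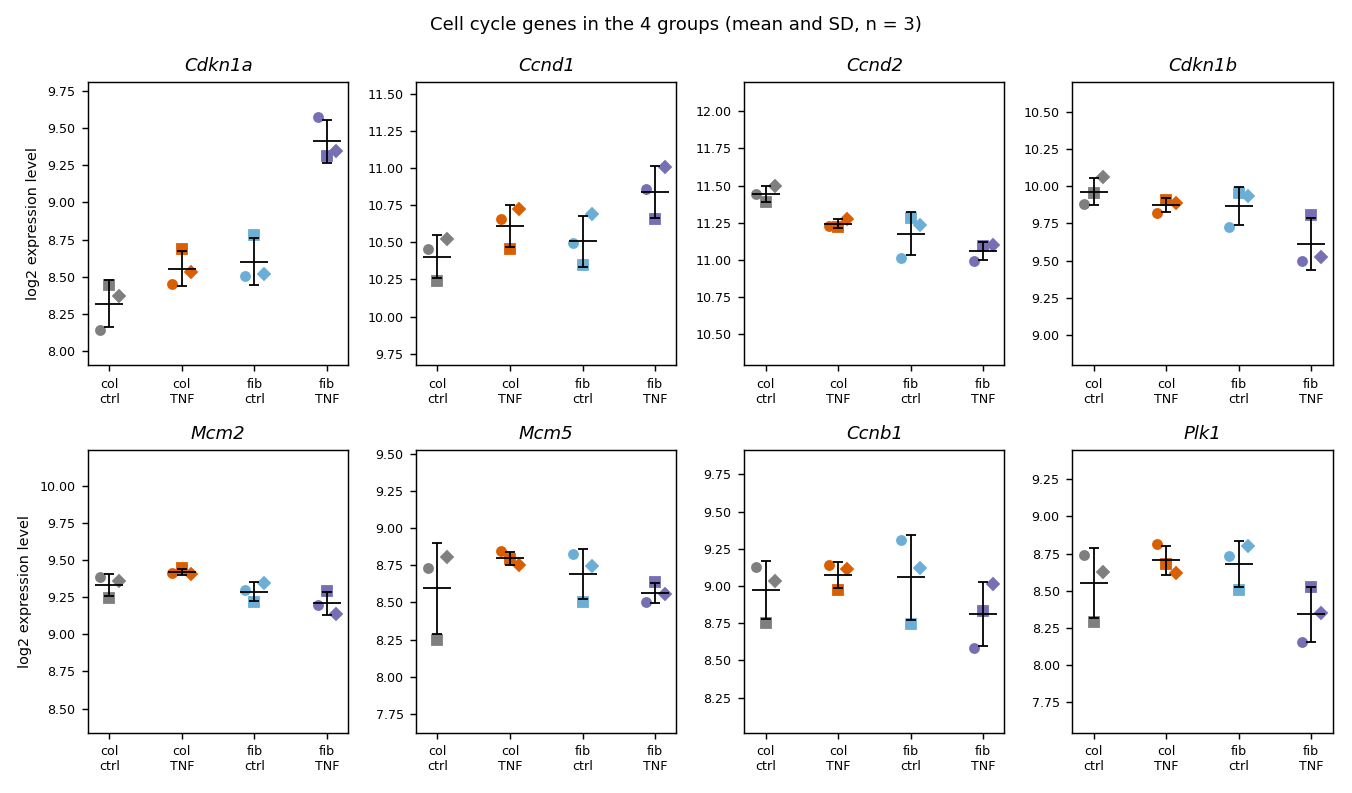
Log2 level on each array (circle, square and diamond for replicates 1, 2 and 3) for chosen genes of each role, with the group mean and SD as bars; every panel spans the same log2 range. Cdkn1a separates the fibrin TNF arrays (9.31 to 9.57) from all others (8.14 to 8.78), while fibrin control and fibrin TNF overlap for the S-phase genes (Mcm2 and Mcm5) and mitotic genes (Ccnb1 and Plk1) shown.

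Other genes of the same processes, from lists of replication and mitotic genes outside the 42, were read in the same way. Of 43 measured replication genes 0 were called with TNF-alpha in either gel, and 1 was lower in fibrin than in collagen with TNF-alpha, a share not above the 3.64% of all genes called lower there. That gene was Tk1, thymidine kinase, at 6.85, 7.02 and 7.02 on the fibrin TNF arrays and 7.29, 7.21 and 7.37 on the collagen TNF arrays. The difference of -0.32 ± 0.08 (adjusted p = 0.0288 by limma) was lost in 3 of the 12 fits that left out 1 array, without collagen TNF replicate 1 (adjusted p = 0.0779), collagen TNF replicate 3 (0.120) or fibrin TNF replicate 1 (0.110), and after median centring (0.0522). It was lost as well with only the groups compared (0.0585) and without 3 arrays described at the end (0.116). Of 49 other mitotic genes measured, 0 were called in any comparison. Their medians were 0.02 for TNF-alpha in collagen, -0.11 for TNF-alpha in fibrin, 0.04 between the untreated gels and -0.11 between the TNF-treated gels.

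The D-type cyclins link growth signals to the cycle. Ccnd1 was 10.45, 10.24 and 10.52 on the collagen control arrays and 10.66, 10.45 and 10.72 on the collagen TNF arrays. In fibrin it was 10.49, 10.34 and 10.69 without TNF-alpha and 10.86, 10.66 and 11.00 with it. In both gels each TNF-treated array was above the control array of the same number, although the groups overlapped. The differences were 0.21 ± 0.12 in collagen (adjusted p = 0.385 by limma) and 0.33 ± 0.12 in fibrin (adjusted p = 0.180). In a fit blocked on replicate number inside each gel, the increase in fibrin passed the threshold (adjusted p = 0.0176) and that in collagen did not (adjusted p = 0.0625). The difference between these effects was 0.12 ± 0.17 and was not called (adjusted p = 0.824).

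Ccnd2 was 11.44, 11.39 and 11.50 on the collagen control arrays and 11.01, 11.28 and 11.23 on the fibrin control arrays, which did not overlap. It was lower in fibrin by 0.27 ± 0.08 on the log2 scale (adjusted p = 0.0422 by limma). The call was lost in 9 of the 12 fits that left out 1 array (adjusted p 0.0531 to 0.149), being kept only without fibrin control replicate 2, fibrin TNF replicate 1 or fibrin TNF replicate 3, and also after quantile normalization (-0.23, adjusted p = 0.0871) and median centring (adjusted p = 0.118). Fitting only the groups compared (adjusted p = 0.112) or leaving out 3 arrays described at the end (0.0550) lost the call too. With TNF-alpha it was 11.23, 11.22 and 11.28 in collagen and 10.99, 11.09 and 11.10 in fibrin, a difference of -0.18 ± 0.08 that was not called (adjusted p = 0.187). The Ccnd2 difference with TNF-alpha was -0.20 ± 0.08 in collagen (adjusted p = 0.169 by limma) and -0.11 ± 0.08 in fibrin (adjusted p = 0.533), neither called. In the untreated gels, 4 of 7 smooth muscle markers and 6 of 9 macrophage markers were called lower in fibrin as well, against 5.19% of all genes. Of either list 0 were called higher. The summed linear level of the smooth muscle markers was 2382 to 3123 in fibrin control and 3280 to 4173 in collagen control. That of the macrophage markers was 4177 to 5089 and 5832 to 7199. The part of these markers in the Ccnd2 difference was not tested.

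Among the 3 CDK inhibitors, Cdkn1a was 8.14, 8.45 and 8.37 on the collagen control arrays and 8.45, 8.68 and 8.53 on the collagen TNF arrays. It was 8.51, 8.78 and 8.52 on the fibrin control arrays and 9.57, 9.31 and 9.35 on the fibrin TNF arrays. In ascending order the group means were 8.32 ± 0.16 in collagen control, 8.56 ± 0.12 in collagen TNF, 8.60 ± 0.16 in fibrin control and 9.41 ± 0.14 in fibrin TNF. Collagen TNF and fibrin control overlapped, neither differed from collagen control past the threshold, and every fibrin TNF array lay above all 9 others.

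With TNF-alpha in fibrin Cdkn1a rose by 0.81 ± 0.11 on the log2 scale, or 1.75-fold (adjusted p = 0.001446 by limma). With TNF-alpha present it was 1.81-fold higher in fibrin than in collagen (0.85 ± 0.11, adjusted p = 2.73e-04). These comparisons share the fibrin TNF arrays, and both calls were kept under every alternative fitted, with ranges of 0.73 to 0.90 and 0.77 to 0.92. In collagen the difference with TNF-alpha was 0.24 ± 0.11 (adjusted p = 0.267), and between the untreated gels it was 0.28 ± 0.11 (adjusted p = 0.126). The difference between the TNF-alpha effects, 0.57 ± 0.15, did not pass the threshold (adjusted p = 0.110), but did with a trended and robust prior (adjusted p = 0.0430), so a larger effect in fibrin than in collagen was not established. Of 8 fibroblast markers, 1 was called lower with TNF-alpha in fibrin, against 211 of all 14324 genes tested. Their summed linear level was 32212 to 36201 in fibrin TNF and 38868 to 40724 in fibrin control, and their part in the result was not tested.

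Cdkn1b (p27), an inhibitor typical of quiescent cells, was 9.72, 9.95 and 9.93 on the fibrin control arrays and 9.50, 9.81 and 9.53 on the fibrin TNF arrays, which overlapped. Its difference of -0.26 ± 0.09 was not called (adjusted p = 0.196 by limma), and neither was that of -0.26 ± 0.09 between the TNF-treated gels (adjusted p = 0.121). Without fibrin TNF replicate 2 both passed the threshold (-0.36, adjusted p = 0.0471, and -0.36, adjusted p = 0.0267). Cdkn2b (p15), an inhibitor of the D-cyclin kinases, differed by 0.15 ± 0.08 with TNF-alpha in fibrin and by 0.02 ± 0.08 in collagen, neither called.

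Of 14 other measured inhibitors and components of the retinoblastoma and E2F pathway, 1 was called lower with TNF-alpha in collagen, against 444 of all 14324 genes tested. With TNF-alpha in fibrin 0 were called, against 3.13% of all genes. The gene called in collagen was Cdkn2c (p18), another inhibitor of the D-cyclin kinases, at 8.84, 8.97 and 8.94 on the collagen control arrays and 8.54, 8.41 and 8.56 on the collagen TNF arrays. It fell by 0.42 ± 0.08 on the log2 scale (adjusted p = 0.00815 by limma), a call lost when 3 arrays, those described at the end, were left out together (adjusted p = 0.0619). Without TNF-alpha it was also lower in the fibrin group, by 0.31 ± 0.08 relative to collagen control (adjusted p = 0.0306), and this comparison shares the collagen control arrays. It was the 1 of the 14 called there, against 5.19% of all genes called lower. That second call was lost without collagen control replicate 2 (adjusted p = 0.108), collagen control replicate 3 (0.0883), fibrin control replicate 1 (0.0978) or fibrin control replicate 2 (0.106), and after median centring (0.0810). Leaving out the 3 arrays together lost it too (0.248). Lin37, a subunit of the MuvB core, was 0.27 ± 0.07 higher in fibrin than in collagen with TNF-alpha (adjusted p = 0.0459). It was the 1 of the 14 called there, against 4.55% of all genes called higher. The call was lost in 10 of the 12 fits that left out 1 array (adjusted p 0.0501 to 0.159) and kept without collagen control replicate 3 or fibrin control replicate 2. It was lost too after quantile normalization (0.0959), with only the groups compared (0.0843) and without the 3 arrays together (0.133).

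Among 11 other genes of the first gap phase, 1 was called lower with TNF-alpha in fibrin, against 211 of all 14324 genes tested. In the other comparisons 0 were called. Ccng2, an atypical cyclin linked to cell cycle exit, was 9.64, 9.80 and 9.84 on the fibrin control arrays and 9.14, 9.48 and 9.19 on the fibrin TNF arrays. It fell by 0.49 ± 0.10 on the log2 scale with TNF-alpha in fibrin (adjusted p = 0.0239 by limma). The call was lost without fibrin control replicate 2 (adjusted p = 0.0908), fibrin control replicate 3 (0.104), fibrin TNF replicate 1 (0.104) or fibrin TNF replicate 3 (0.0916), and when only the groups compared were fitted (0.0726). Leaving out the 3 arrays described at the end lost it too (0.241).

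Genes known as targets of p53 were read beside Cdkn1a, itself such a target, from a list of 25 of which 20 were measured. With TNF-alpha in fibrin 4 of the 20 rose, 0 fell and 16 did not pass the threshold, against 1.65% of all genes called higher. With TNF-alpha in collagen 1 rose, Ddit4, and 1 fell, Gdf15, against 6.37% of all genes called. Between the untreated gels 2 were higher in fibrin, Ddit4 (1.47 ± 0.24, adjusted p = 0.00123 by limma) and Aen (0.35 ± 0.07, adjusted p = 0.00700), and 2 were lower, Gdf15 (-0.48 ± 0.12, adjusted p = 0.0216) and Pmaip1 (-0.35 ± 0.10, adjusted p = 0.0398), against 10.5% called. The Gdf15 call was lost without replicate 1 or 2 of collagen control or replicate 1 or 3 of fibrin control (adjusted p 0.0603 to 0.0708). That of Pmaip1 was lost without any 1 of the collagen control arrays, replicate 1 or 3 of collagen TNF or replicate 2 or 3 of fibrin control (adjusted p 0.0505 to 0.147). Median centring (0.0829), fitting only the groups compared (0.0690) and leaving out the 3 arrays described at the end (0.245) also lost it. Without those 3 arrays the Gdf15 call was lost as well (0.120). With TNF-alpha present, 6 of the 20 were higher and 0 lower in fibrin than in collagen, against 4.55% of all genes called higher. The median over the 20 was 0.14 for TNF-alpha in fibrin, 0.17 between the TNF-treated gels and -0.01 for TNF-alpha in collagen. Several of these genes are also known to respond to other signals, among them Fas and Gdf15.

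Mdm2, the ubiquitin ligase that degrades p53, was 9.10, 9.22 and 9.29 on the fibrin control arrays and 9.69, 9.70 and 10.11 on the fibrin TNF arrays, while the collagen arrays spanned 9.15 to 9.33. It rose by 0.63 ± 0.11 on the log2 scale with TNF-alpha in fibrin (adjusted p = 0.005448 by limma). The death receptor Fas was 7.75, 7.82 and 7.57 on the fibrin control arrays and 8.62, 8.31 and 8.42 on the fibrin TNF arrays. Fas rose by 0.74 ± 0.10 (adjusted p = 0.001469). The fibrin TNF arrays of both genes lay above all arrays of the other groups.

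Aen, a nuclease induced in apoptosis, was 7.40, 7.30 and 7.32 on the fibrin control arrays and 7.82, 7.73 and 7.76 on the fibrin TNF arrays. It rose by 0.43 ± 0.07 on the log2 scale (adjusted p = 0.004874 by limma). The stress cytokine Gdf15 rose by 1.05 ± 0.12 in fibrin (adjusted p = 5.29e-04) and fell by 0.69 ± 0.12 in collagen (adjusted p = 0.00348). Phlda3 (0.40 ± 0.09, adjusted p = 0.0199) and Zmat3 (0.33 ± 0.09, adjusted p = 0.0333) were called higher between the TNF-treated gels. Between the untreated gels they differed by 0.06 ± 0.09 and 0.00 ± 0.09, and the difference of the TNF-alpha effects was not called for either (0.34 ± 0.13, adjusted p = 0.287, and 0.33 ± 0.12, adjusted p = 0.266). The Phlda3 call was lost without collagen TNF replicate 1, collagen TNF replicate 3 or fibrin TNF replicate 1 (adjusted p 0.0674 to 0.0786), and the Zmat3 call without collagen TNF replicate 2 or 3 or fibrin TNF replicate 1 or 2 (adjusted p 0.0599 to 0.140). With only the groups compared, both calls were lost (adjusted p = 0.0699 for Phlda3 and 0.0854 for Zmat3). When collagen control replicate 2, fibrin control replicate 2 and fibrin TNF replicate 1, the arrays described next, were left out together, 2 of the p53 targets were called with TNF-alpha in fibrin in place of 4, and 4 in place of 6 between the TNF-treated gels. With TNF-alpha in fibrin the lost genes were Mdm2, at 0.71 (adjusted p = 0.0579), and Aen, at 0.39 (adjusted p = 0.117). Between the TNF-treated gels they were Phlda3, at 0.29 in place of 0.40 (adjusted p = 0.0835), and Zmat3, at 0.28 in place of 0.33 (adjusted p = 0.162). In that fit Cdkn1a was still called in both comparisons, at 0.82 (adjusted p = 0.0149) and 0.77 (adjusted p = 0.00213).

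**Figure D4:**
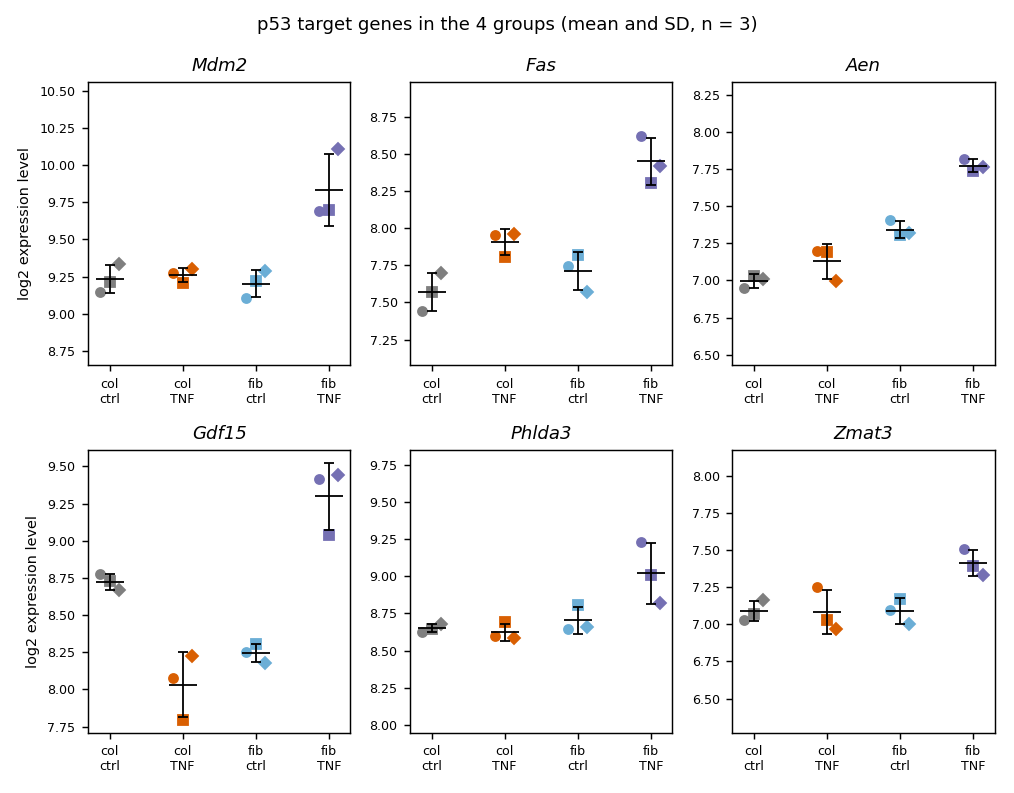
Log2 level on each array of p53 target genes called in the TNF-treated fibrin rings (circle, square and diamond for replicates 1, 2 and 3; bars are group means and SD). For Mdm2, Fas and Aen the 3 fibrin TNF arrays lie above the fibrin control arrays, with Mdm2 at 9.69 to 10.11 against 9.10 to 9.29.

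In 3 of the 4 groups the mitotic genes were low together on the same array. Collagen control replicate 2 was the lowest of its group for 18 of 18 mitotic genes and 12 of 14 S-phase genes, against 34.7% of all genes tested. Fibrin control replicate 2 was the lowest for 18 of 18 and 13 of 14, against 32.0%, and fibrin TNF replicate 1 was the lowest for 14 of 18 mitotic genes and 6 of 14 S-phase genes, against 34.5%. The collagen TNF group had no such array, with 5, 7 and 6 of 18 mitotic genes at their lowest on replicates 1, 2 and 3. The other mitotic genes behaved alike, with 43, 46 and 35 of 49 at their lowest on the 3 arrays named. Cell type markers moved on these arrays too. The summed linear level of the 7 smooth muscle markers was highest on replicate 2 of collagen control (4173, against 3280 and 3574) and of fibrin control (3123, against 2382 and 2531). Fibrin TNF replicate 1 was not the highest of its group for these (2291, against 2588 and 2252), and had the lowest sum of the 8 fibroblast markers (32212, against 35092 and 36201). The sum of the 5 adipocyte markers was highest on collagen control replicate 2 (423, against 184 and 252). It was lowest on fibrin control replicate 2 (172, against 194 and 204). The sum of the 6 endothelial markers was lowest on fibrin control replicate 2 (3468, against 4295 and 3787). On collagen control replicate 2 it was 3846, against 4575 and 3644. The part of these markers in the pattern was not tested.

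After subtraction of the group means, the median correlation across the 12 arrays was 0.77 over the 153 pairs of mitotic genes, of which 151 were above 0. It was 0.53 over the 91 pairs of S-phase genes and 0.53 between the S-phase and mitotic genes. Between a regular sample of genes and all the others it was 0.00. Over the 37 listed genes, same-numbered arrays deviated together between the untreated gels (correlations of 0.69, 0.61 and 0.26 for replicates 1, 2 and 3) and between the collagen groups (0.55, 0.47 and 0.30), and not between the fibrin groups (-0.32, -0.06 and 0.18) or the TNF-treated gels (0.03, 0.08 and 0.17). The arrays may thus not be independent points. They number 12 and share 4 group means, and the genes of a list are not independent. Among single genes, Rrm2 (median 0.87 against the mitotic genes) and Mcm6 (0.85) followed them most closely of the S-phase genes, and Tyms (0.09) and Ccne1 (0.18) least. Of the mitotic genes, Ube2c (0.26) followed the others least.

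Cdkn1a ran the opposite way. Its median correlation with the 18 mitotic genes was -0.76, with all 18 negative and a range of -0.93 to -0.10. Against the mean of the mitotic genes Pearson's r was -0.87 and Spearman's rho -0.71 over 12 arrays, and r was -0.80 over the 10 arrays left without collagen control replicate 2 and fibrin control replicate 2, which lay farthest from the median. It was -0.85 against the mean of the other mitotic genes and -0.73 against the mean of the S-phase genes. In 4 of 4 groups the array with the highest Cdkn1a had the lowest mitotic mean, and in the collagen control, collagen TNF and fibrin control groups it also had the highest summed smooth muscle markers, whose part was not tested. Of all genes tested, 38, or 0.27%, had a median correlation with the mitotic genes at or below that of Cdkn1a. All 37 genes were set against the mitotic genes and Cdkn1a was singled out after these values were seen, so no p-value is given. For comparison, the medians were 0.52 for Ccnd1, -0.08 for Ccnd2, -0.12 for Cdkn1b and 0.26 for Cdkn2b.

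**Figure D5:**
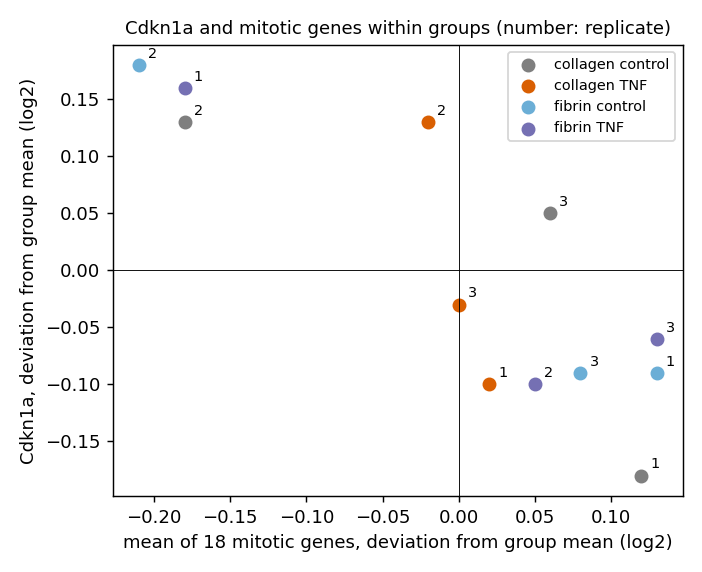
Cdkn1a against the mean of the 18 mitotic genes on the 12 arrays, both as log2 deviations from their group means, with symbols for the 4 groups. The points run from low Cdkn1a and high mitotic mean to the reverse (r = -0.87), and the arrays at the far end are replicate 2 of each control group and replicate 1 of fibrin TNF.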

How the data were processed

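RNA from 12 samples of rat aortic ring cultures, 3 in each of 4 groups, had been hybridised to Affymetrix whole-transcript arrays, per the labels. The deposited values were taken as log2 levels because they span 1.44 to 14.07; column medians were 5.89 to 5.98. The summarisation, background and normalization are not given in the sources used here; limma is named without a version, per the submitters' processing notes. Of 27342 probe sets, 15097 name 1 gene, 323 name several and 11922 are unnamed here. Per gene the probe set of highest mean was used (14324 genes, 499 with more than 1 probe set; the 2 probe sets of Ccnb2 and of Rrm2 gave like group means). RefSeq (GRCr8) held 15067 of the 1-gene probe sets and changed 0 symbols.

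The fit of all 12 arrays used R 4.3.3 and limma 3.58.1 (1 mean per group, eBayes, two-sided, Benjamini-Hochberg over all genes), and the script was tested on simulated data. Alternatives were quantile normalization, median centring, leaving out the 33.3% of genes of lowest mean, the mean of a gene's probe sets, a fit of the compared groups alone, eBayes with a trend and robust variances, the replicate number as a block, and each array left out in turn. Leaving out 3 arrays together, and the counts of arrays that do not overlap, were added after the data were seen. Members and lists were chosen with earlier results of these data known. All members could be named, and from each other list the 6 called genes of lowest adjusted p at most, with 3 more. Batches were not examined, as no scan date or slide appears among these labels. Precision is limited by having 3 arrays a group.

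Same-numbered arrays deviated from their group means together, with correlations over all genes of 0.13, 0.14 and 0.14 between the collagen groups and 0.25, 0.14 and 0.16 between the fibrin groups. The main fit took no pairing, and the replicate number was used as a block within each gel in an alternative fit. Between the gels the values were 0.23, 0.08 and 0.13 without TNF-alpha and 0.05, 0.03 and 0.14 with it. Those without TNF-alpha overlapped the values within a gel, so the values do not single out pairing within a gel. A block across all 4 groups was a further alternative.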

Additional observations from a re-analysis of the deposited data

Results flagged for a closer look

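For 2 of the 20 measured genes of the p53 target list the TNF-alpha effect differed between the gels by a test of the difference itself, against 1.24% of all genes tested. The listed genes and the other lists described, apart from cell type markers, were all searched for such differences. For Gdf15 the effect in fibrin exceeded that in collagen by 1.74 ± 0.17 on the log2 scale (adjusted p = 4.34e-04 by limma), with fibrin going from 8.25, 8.31 and 8.18 to 9.41, 9.04 and 9.44 and collagen from 8.77, 8.73 and 8.67 to 8.08, 7.79 and 8.23. All 3 arrays moved up in fibrin and all 3 down in collagen.

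For Ddit4, an inhibitor of the growth kinase mTORC1 that is induced by hypoxia and other stresses, the difference was -1.52 ± 0.33 (adjusted p = 0.04884 by limma). It was 8.33, 9.41 and 8.74 on the collagen control arrays, 9.90, 10.42 and 10.22 on the collagen TNF arrays, 10.20, 10.45 and 10.24 on the fibrin control arrays and 10.29, 10.35 and 9.76 on the fibrin TNF arrays. The call was lost in 10 of the 12 fits that left out 1 array (adjusted p 0.0556 to 0.123; kept without collagen control replicate 2 or fibrin TNF replicate 2), after quantile normalization (0.0508), with a trended and robust prior (0.0835) and without the 3 arrays that stood apart in the mitotic genes (0.0775). Its value lay between -1.81 and -1.27 under the fits that lost the call.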

How the results depend on the processing

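Each of the 5 counts of listed genes called takes higher and lower genes together, so a count carries no direction. The count for TNF-alpha in collagen was 0, and 1 with the replicate block across all 4 groups (Ccnd1). That for TNF-alpha in fibrin was 1, and 2 with the replicate block within each matrix or across all 4 groups, and 1 to 2 when each array was left out in turn. That between the untreated gels was 1. It became 0 after quantile normalization, median centring, with only the groups compared and without the 3 arrays that stood apart, 2 without the genes of lowest mean and with a trended and robust prior, and 0 to 1 when each array was left out. That between the TNF-treated gels was 1, and 2 after quantile normalization, without the genes of lowest mean, with the trended, robust prior and with the replicate block across all 4 groups, and 1 to 2 when each array was left out. The difference of TNF-alpha effects gave 0, and 1 with a trended and robust prior. The count of genes lower without overlap between the TNF-treated gels was 16, and 10 after median centring; leaving out an array cannot lower such a count. The cause of these changes was not tested. Pairing within a gel changed the call of no listed gene other than Ccnd1 in fibrin. The mitotic median ranged from -0.25 to -0.04 for TNF-alpha in fibrin and from -0.24 to -0.07 between the TNF-treated gels.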
